A study of Mus musculus with 4 samples.

Results

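The genes described here are 10 receptors of the TGF-beta family, taken by symbol from the gene table of each library: 10 of 28545 genes, each with 1 row per library. They comprise 5 type I receptors (Tgfbr1, Acvr1b, Acvr1, Bmpr1a and Acvrl1), 4 type II receptors (Tgfbr2, Acvr2a, Acvr2b and Bmpr2) and the co-receptor Tgfbr3, also called betaglycan. Polyadenylated RNA labelled as mouse endometrium was sequenced in 4 libraries, 2 titled SMAD7fl/fl and marked "blank" for treatment, and 2 titled SMAD7 Cre+/- and marked CKO. All the mice were at proestrus according to the series design, which speaks of uterine tissue and calls the groups WT and SMAD7 knockout. The floxed allele was made by injecting fertilized eggs with Cas9, a guide RNA for Smad7 and a donor carrying loxP sites. The titles of the libraries labelled Cre do not repeat that the allele is floxed. The promoter that drives Cre, the deleted exons, the age of the mice and any pooling are not stated in the labels. The labels do not state that the libraries of a group come from separate animals, so the spread behind each p-value is that among 4 libraries and may be technical.

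Ligands of the TGF-beta family bind a complex of type II and type I receptors, all of them transmembrane serine/threonine kinases. The type II receptor phosphorylates the type I receptor in a glycine- and serine-rich stretch beside the membrane, the GS box, and the type I receptor then phosphorylates SMAD proteins. TGFBR1 and ACVR1B act through SMAD2 and SMAD3, and ACVR1, BMPR1A and ACVRL1 act mainly through SMAD1, SMAD5 and SMAD9. SMAD7, the gene that the series sets out to delete, binds activated type I receptors and recruits ubiquitin ligases to them. In the uterus these receptors are known for roles in implantation, in the decidual change of the stroma and in the smooth muscle wall.

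The coding stretch of the GS box is shown because it is what separates the 5 type I members from the others. It was read from the transcript with the longest coding sequence of each gene in GENCODE mouse release 21 (GRCm38), 60 bases each, 5′ to 3′, with the 21 bases that encode the glycine-serine repeat and the residues leucine and proline after it in capitals.
Tgfbr1: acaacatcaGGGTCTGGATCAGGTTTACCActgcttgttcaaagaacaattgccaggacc
Acvr1b: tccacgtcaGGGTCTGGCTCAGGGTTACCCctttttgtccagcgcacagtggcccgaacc
Acvr1: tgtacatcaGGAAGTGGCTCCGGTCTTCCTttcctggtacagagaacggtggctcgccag
Bmpr1a: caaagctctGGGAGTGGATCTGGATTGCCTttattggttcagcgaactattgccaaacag
Acvrl1: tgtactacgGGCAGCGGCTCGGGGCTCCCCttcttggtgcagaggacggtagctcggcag
The encoded repeat was found in 5 of the 5 type I receptors and in none of the 4 type II receptors or Tgfbr3. By base identity the stretches fell into pairs. Acvr1 and Acvrl1 shared 46 of 60 bases (76.7%) and Tgfbr1 and Acvr1b shared 44 (73.3%), while the other pairs shared 29 to 37. In Acvr1 the stretch lies in 1 exon at chr2:58474195-58474254 on the minus strand, and in Acvrl1 in 1 exon at chr15:101136146-101136205 on the plus strand. In the others it crosses an intron, at chr4:47393468-47396392 (plus strand) for Tgfbr1, chr15:101195036-101198821 (plus strand) for Acvr1b and chr14:34425115-34429691 (minus strand) for Bmpr1a.

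The members lie on 7 chromosomes of GRCm38, and Acvrl1 (15:101128522-101145336) and Acvr1b (15:101174067-101213684) are neighbours on the plus strand of chromosome 15, separated by 28.7 kb. Tgfbr3 lies at 5:107106570-107289629 on the minus strand, Bmpr2 at 1:59763400-59879014 on the plus strand, Tgfbr1 at 4:47353222-47414931 on the plus strand and Tgfbr2 at 9:116084293-116175360 on the minus strand. Acvr1 (2:58388644-58567157, minus strand) and Acvr2a (2:48814109-48903269, plus strand) lie on chromosome 2, Acvr2b at 9:119402118-119434995 on the plus strand and Bmpr1a at 14:34410734-34503341 on the minus strand. Few 50-base words of their transcripts occur in transcripts of any other gene. The share was highest for Acvr2a (6.98%, from the antisense end of Orc4), Tgfbr3 (3.85%, from Gm43422 on the same strand) and Bmpr1a (3.77%, from the antisense gene Gm17110), and it was under 1% for the other 7. No word was shared between 2 members, apart from the pair Tgfbr2 and Bmpr2, which could not be read. For those genes only the commonest other genes were kept. Whether counting used strand is not given in the sources used here, so reads in those overlaps were uncertain.

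Total counts ran from 17444368 to 22950532 per library, and the 10 receptors together held 0.0910% to 0.153% of them. Smad7, read first because it checks the labels, had 7.79 and 7.81 FPKM in the libraries labelled fl/fl and 49.9 and 33.9 in those labelled Cre, higher where the label calls for deletion, so every direction below is that of the labels and not of a verified loss. Whether the labels of the groups were exchanged, which would turn every sign, was not tested. Counts were per gene, so the loss of single exons was not analysed here. The 2 libraries labelled fl/fl were less alike (Spearman correlation 0.908 over 13513 genes) than the 2 libraries labelled Cre (0.985), and less alike than any pair with 1 library of each label (0.912 to 0.920). Markers of stroma and epithelium were present in every library and none was at 0, and smooth muscle markers were present too. The 10 smooth muscle markers summed to 1630 to 1952 FPKM in the libraries labelled fl/fl and 2739 to 3053 in those labelled Cre. In counts scaled to library size (CPM), 10 of 10 were higher in both libraries labelled Cre than in either library labelled fl/fl. The same held for 24.7% of all tested genes. In FPKM 1 of the 10, Mylk, overlapped between groups (98.2 and 52.2 against 106 and 96.6).

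No receptor passed the main test, and no gene did: edgeR's quasi-likelihood test called 0 of 13513 genes (0%) at a Benjamini-Hochberg adjusted p under 0.05. With no adjustment 987 genes were higher and 889 lower at that threshold, and DESeq2 called 438 higher and 405 lower after adjustment, while limma on log2 FPKM called 0. At an unadjusted p under 0.05, 1 of 10 receptors was higher in the libraries labelled Cre, Tgfbr3, where 7.30% of all genes were, and 0 of 10 fell on the lower side, where 6.58% did. All 10 passed the filter on low values, a mean of 1 FPKM. Of their log2 fold changes 9 of 10 were positive, against 6351 of 13513 over all tested genes. Among the positive values, those of Acvr1 (0.02) and Acvr2b (0.05) lay near 0 and changed sign in some alternatives. The median log2 fold change was 0.24 for the receptors and -0.03 for all tested genes. The 2 libraries labelled Cre lay above both libraries labelled fl/fl for 4 of 10 receptors (Tgfbr3, Bmpr2, Acvr1b and Tgfbr2), a pattern found in 24.7% of all genes, and below them for 0 of 10, where 23.6% of all genes did. One receptor at the unadjusted threshold is near what the background gives for a set of this size.

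Tgfbr2 and Bmpr1a were the most abundant of the kinase receptors per length in every library and Acvr2b the least abundant. FPKM, counts scaled to exon length and library size, allows levels to be compared between genes. Over the 4 libraries Tgfbr2 averaged 46.0 FPKM, Bmpr1a 35.0, Tgfbr3 24.5, Acvr1b 18.3, Acvrl1 16.8, Tgfbr1 15.2, Bmpr2 9.22, Acvr1 8.07, Acvr2a 7.51 and Acvr2b 1.40. In the fl/fl group Tgfbr1, Acvrl1, Acvr1b and Tgfbr3 had overlapping ranges, as did Acvr1, Acvr2a and Bmpr2. The range of Tgfbr2 overlapped that of Bmpr1a between libraries, although within each library Tgfbr2 was the higher, and Acvr1 was likewise above Acvr2a in both. In the Cre group only Bmpr1a and Tgfbr3, and Acvr1 and Acvr2a, overlapped as neighbours. Tgfbr3 ranked 4 and 5 in the 2 libraries labelled fl/fl and 2 and 3 in the 2 libraries labelled Cre. These places depend on the length used. The deposited values divide Bmpr2 by 17983 bases of merged exons, and on its transcript with the longest coding sequence, of 12899 bases, it averaged 16.7 FPKM in place of 11.9 in the libraries labelled Cre and ranked 6, not 7, there.

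**Figure D1:**
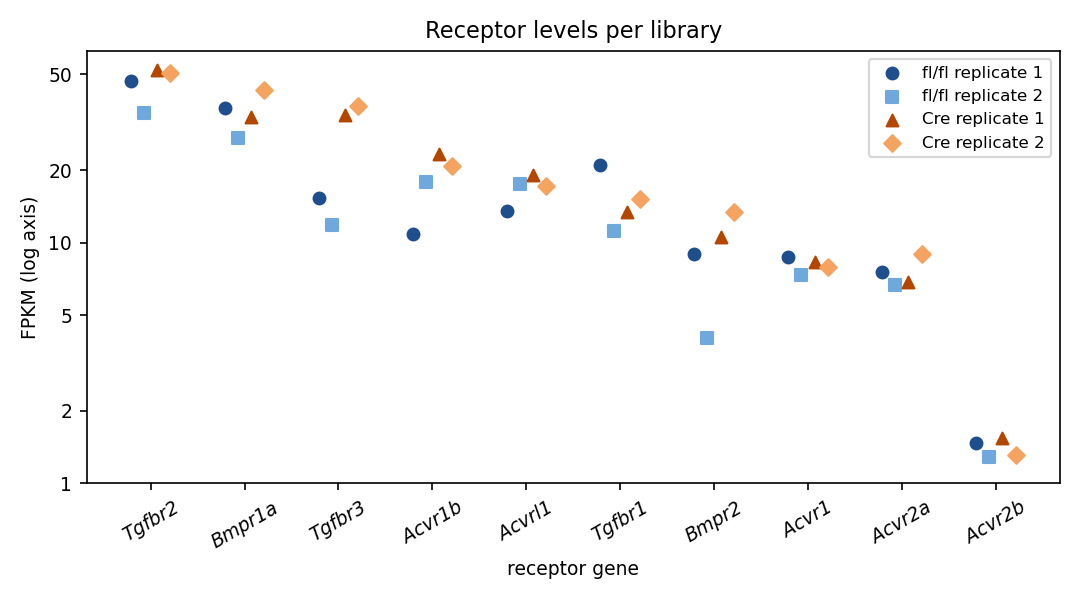
FPKM on a log axis for each of the 10 receptors in the 4 libraries, ordered by the mean of the 4. The Tgfbr3 points of the 2 libraries labelled Cre (34.0 and 36.9) stand well above those of the 2 libraries labelled fl/fl (15.3 and 11.9), while the points of Acvr1 lie between 7.31 and 8.72 in all 4.

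The co-receptor Tgfbr3 showed the largest difference of the 10. Betaglycan, its product, has no kinase, binds TGF-beta and presents it to TGFBR2, is needed most for TGF-beta2, and also binds inhibin. Tgfbr3 (ENSMUSG00000029287) stood at 15.3 and 11.9 FPKM in the libraries labelled fl/fl and at 34.0 and 36.9 in those labelled Cre, from 2298, 1416, 4413 and 4218 counts. The groups did not overlap, and the 2 libraries within each group lay close together. The log2 fold change was 1.39 ± 0.23 (SE, n = 2 per group; 95% interval 0.80 to 1.97), or 2.61-fold, and edgeR put the unadjusted p at 0.00158 and the adjusted p at 0.119. A fold change at least as large and in the same direction was found in 3.50% of the tested genes. That share is per gene, whereas Tgfbr3 was singled out as the largest of 10, so it does not measure how unusual that is. DESeq2 on the same counts gave 1.39 with an adjusted p of 2.4e-05, and edgeR with no filter on low genes gave 1.33 with an adjusted p of 0.00125. Leaving out 1 library at a time kept the difference between 1.25 and 1.53. It was 1.53 without fl/fl replicate 1 and 1.25 without fl/fl replicate 2, where only the closely matched Cre pair gave the spread. Without Cre replicate 1 it was 1.44 and without Cre replicate 2 it was 1.33. Passing or failing was not read from fits with 1 library in a group.

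Tgfbr3 is expressed in several uterine cell types, and in RNA from whole tissue a change in the number of cells of a type and a change in RNA per cell cannot be told apart. Per FPKM of the 10 smooth muscle markers, Tgfbr3 stood at 0.00784 and 0.00729 in the libraries labelled fl/fl and 0.0111 and 0.0135 in those labelled Cre, still apart but by less. Relative to the 9 stromal markers it stood at 0.0198 and 0.0114 against 0.0301 and 0.0305. In CPM, 4 of these 9 markers were lower and 3 higher without overlap, against 23.6% and 24.7% of all genes. Dcn, a large part of their sum, stood at 216 and 590 FPKM in the libraries labelled fl/fl. Relative to the 6 mesothelial markers the groups nearly met, at 0.388 and 0.518 against 0.526 and 0.780. Of those 6 markers, 5 were higher at an unadjusted p under 0.05, against 7.30% of all genes. The other, Wt1, overlapped between groups (24.0 and 12.4 against 14.9 and 18.9 FPKM). It gave most of the fl/fl sums of 39.4 and 23.0 FPKM, and Tgfbr3 was not read against the 5 without it. The 7 oviduct and ovary markers summed to 20.6 and 43.4 FPKM in the libraries labelled fl/fl and to 96.1 and 295 in those labelled Cre, and most of the latter sums came from Ovgp1 (56.0 and 243). Of the others, Hsd3b1 was at 0 counts in both libraries labelled fl/fl and Cyp11a1 at 2 and 0, while Foxl2 overlapped between groups (log2 fold change 0.02). Foxj1 stood at 0.598 and 1.34 against 9.94 and 28.4 FPKM, and Star at 2.20 and 2.12 against 7.45 and 6.08. Cyp17a1 reached at most 0.228 FPKM. Relative to the sum of the 7 markers Tgfbr3 overlapped between groups, at 0.744 and 0.274 against 0.354 and 0.125. Relative to the endothelial markers it stood at 0.0475 and 0.0429 against 0.137 and 0.151, and the groups also stayed apart relative to pericyte, leukocyte, epithelial and adipocyte markers. The part of these cell types in the Tgfbr3 difference was not tested.

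By the distance between profiles of log2 CPM (counts scaled to library size, with 0.5 added) over the 4 libraries, each centred on its own mean, the genes most like Tgfbr3 were Adam22, Hspa12a and Spty2d1. Their root mean square distances were 0.041, 0.056 and 0.062 log2 units, and 14 of the tested genes lay within 0.1. With 4 libraries such likeness is a description only. Adam22, the closest, stood at 1.42 and 1.05 FPKM in the libraries labelled fl/fl and at 2.95 and 3.34 in those labelled Cre.

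The type II receptor of TGF-beta itself, Tgfbr2, was the most abundant member and differed little. It stood at 46.9 and 34.4 FPKM in the libraries labelled fl/fl and at 52.1 and 50.5 in those labelled Cre. Both Cre values lay above both fl/fl values, but the gap from the upper fl/fl value was smaller than the gap between the libraries labelled fl/fl. The log2 fold change was 0.34 ± 0.27 (SE; 95% interval -0.34 to 1.02; adjusted p 0.600). Because a ratio of 2 genes within a library does not depend on library scaling, Tgfbr3 was also read against Tgfbr2. The ratio was 0.326 and 0.345 in the libraries labelled fl/fl and 0.652 and 0.732 in those labelled Cre, a mean 2.06 times higher, and leaving out 1 library moved this only between 1.94 and 2.18.

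Bmpr2, the type II receptor of BMPs, had the next largest difference and the widest spread. It stood at 8.97 and 4.02 FPKM in the libraries labelled fl/fl and at 10.5 and 13.4 in those labelled Cre, from 3703, 1316, 3757 and 4190 counts. Replicate 1 of the fl/fl group was closer to the libraries labelled Cre than to its own partner, from which it differed 2.09-fold in CPM. The log2 fold change was 0.89 ± 0.40 (SE; 95% interval -0.13 to 1.92; adjusted p 0.405). It was 1.52 without fl/fl replicate 1 and 0.45 without fl/fl replicate 2, so its size turned on which library labelled fl/fl was used.

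The activin type II receptors stood low and nearly level. Acvr2a, which binds activins and also serves BMPs, had 7.57 and 6.67 FPKM in the libraries labelled fl/fl and 6.86 and 8.95 in those labelled Cre (log2 fold change 0.15, 95% interval -0.41 to 0.71). Acvr2b, its close relative, had 1.48 and 1.29 against 1.54 and 1.31 FPKM (0.05, 95% interval -0.87 to 0.96), from only 90 to 133 counts per library. The groups overlapped for both, and the wide interval of Acvr2b allows a difference of nearly 1 log2 unit in either direction.

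Among the type I receptors Acvr1b and Tgfbr1, which act through SMAD2 and SMAD3, were uneven between the libraries labelled fl/fl. Acvr1b, the type I receptor of activin and nodal, stood at 10.8 and 17.8 FPKM in the libraries labelled fl/fl and at 23.5 and 20.9 in those labelled Cre. Tgfbr1, the type I receptor of TGF-beta, stood at 21.1 and 11.2 against 13.5 and 15.2. Replicate 1 of the fl/fl group was thus the lowest library for Acvr1b and the highest for Tgfbr1. The log2 fold change of Acvr1b was 0.62 ± 0.32 (SE; 95% interval -0.20 to 1.43; adjusted p 0.458), with no overlap between groups. It was 0.27 without fl/fl replicate 1 and 1.07 without fl/fl replicate 2. That of Tgfbr1 was -0.16 ± 0.32 (SE; 95% interval -0.98 to 0.67), the only negative value of the 10, and it turned to 0.31 without fl/fl replicate 1. The ratio of Acvr1b to Tgfbr1 was 0.514 and 1.59 in the libraries labelled fl/fl and 1.74 and 1.37 in those labelled Cre, so one library labelled fl/fl resembled the Cre pair and the other did not.

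Of the 3 type I receptors that act through SMAD1, SMAD5 and SMAD9, none separated the groups. Bmpr1a, the main BMP type I receptor of the set, stood at 36.3 and 27.3 FPKM in the libraries labelled fl/fl and 33.4 and 43.1 in those labelled Cre (log2 fold change 0.27, 95% interval -0.40 to 0.94). Acvr1, which serves BMPs and activin-bound complexes, was the steadiest member, at 8.72 and 7.31 against 8.31 and 7.95 FPKM (0.02, 95% interval -0.48 to 0.52). Acvrl1, the receptor of BMP9 and BMP10 in endothelium, stood at 13.5 and 17.5 against 19.1 and 17.1 FPKM (0.21, 95% interval -0.41 to 0.83), and its difference was -0.0030 without fl/fl replicate 1. The 16 endothelial markers, in contrast, summed to 322 and 277 FPKM in the libraries labelled fl/fl and to 249 and 245 in those labelled Cre. In CPM, 8 of 16 were lower and 3 of 16 higher without overlap, against 23.6% and 24.7% of all genes. Acvrl1 per FPKM of these markers was 0.0420 and 0.0633 against 0.0767 and 0.0698. Endoglin (Eng), the endothelial co-receptor of ACVRL1, overlapped between groups as well, at 40.1 and 24.0 against 38.1 and 42.9 FPKM.

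**Figure D2:**
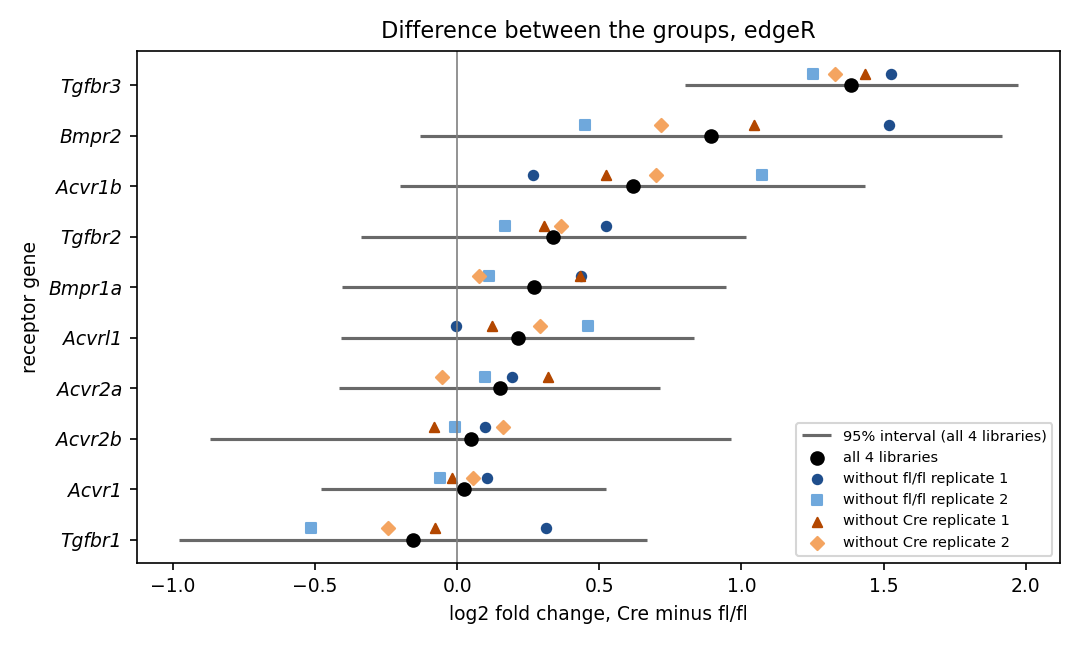
Log2 fold change of each receptor, Cre minus fl/fl, from edgeR (black point) with its 95% interval (bar), and the value with each library left out (small coloured points). The interval of Tgfbr3 (0.80 to 1.97) is the only one that stays clear of 0, and the points of Bmpr2, Acvr1b and Tgfbr1 spread widely between the 2 settings that leave out a library labelled fl/fl.

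For most receptors the libraries labelled fl/fl differed from each other as much as the groups did. The log2 difference between groups was no larger than that between the 2 libraries labelled fl/fl for 8 of 10 members. The exceptions were Tgfbr3, at 1.39 against 0.27, and Acvr2a, at 0.15 against 0.086, and Acvr2a differed by 0.38 between the 2 libraries labelled Cre. Tgfbr3 was therefore the 1 member whose group difference exceeded both pairs. The fl/fl pair differed more than the Cre pair for 7 of 10 members, the exceptions being Bmpr1a, Acvr2a and Acvr2b. Over the 13513 tested genes the fl/fl pair was likewise the less alike (Spearman correlation 0.908 against 0.985). The share of all genes that meets each of these criteria was not counted, so these counts are not read as traits of the receptors.

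**Figure D3:**
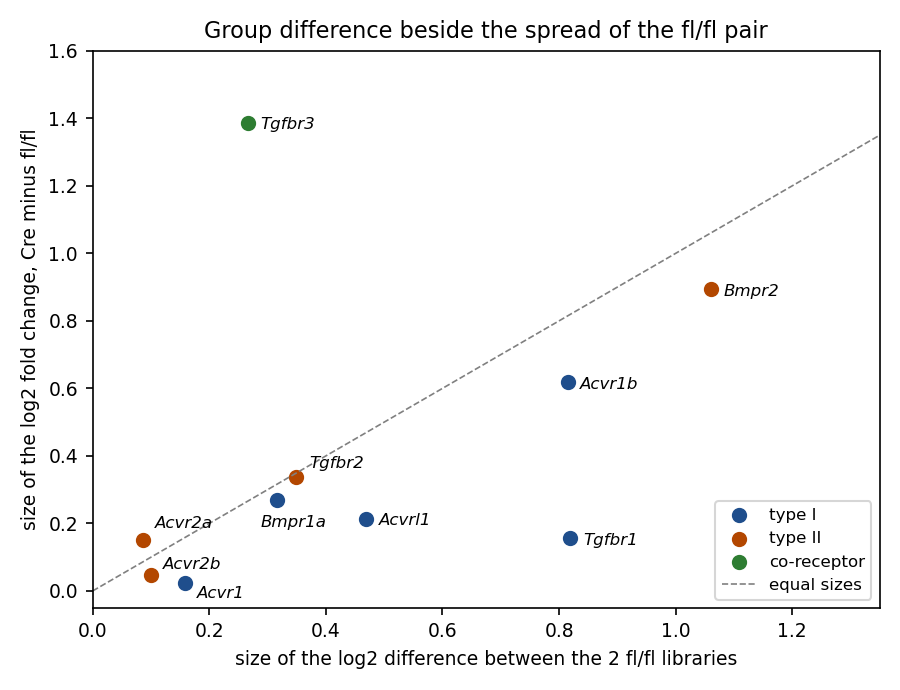
Size of the log2 fold change between groups (vertical) against the size of the log2 CPM difference between the 2 libraries labelled fl/fl (horizontal), 1 point per receptor, coloured by class, with a dashed line where both are equal. Tgfbr3 lies far above the line (1.39 against 0.27), Acvr2a just above it, and the other 8 on or below it.

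Summed per length, receptor mRNA was higher in the libraries labelled Cre. The 5 type I receptors summed to 90.5 and 81.1 FPKM in the libraries labelled fl/fl and 97.7 and 104 in those labelled Cre, a mean 1.18 times higher, and the 4 type II receptors to 65.0 and 46.4 against 71.1 and 74.1 FPKM, 1.30 times higher. Neither sum overlapped between groups. For both sums, however, the gap from the upper fl/fl value to the lower Cre value was smaller than the gap between the libraries labelled fl/fl. The ratio of type II to type I was 0.718 and 0.573 against 0.727 and 0.710 and did overlap. Tgfbr3 made up 8.96% and 8.53% of the FPKM of the 10 receptors in the libraries labelled fl/fl and 16.8% and 17.2% in those labelled Cre, while the share of Tgfbr2 overlapped between groups (27.5% and 24.7% against 25.7% and 23.4%). The share of Tgfbr1 was 12.3% and 8.01% against 6.64% and 7.08%. Set against the other 9 receptors together, Tgfbr3 stood at 0.0984 and 0.0933 in the libraries labelled fl/fl and 0.201 and 0.207 in those labelled Cre.

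**Figure D4:**
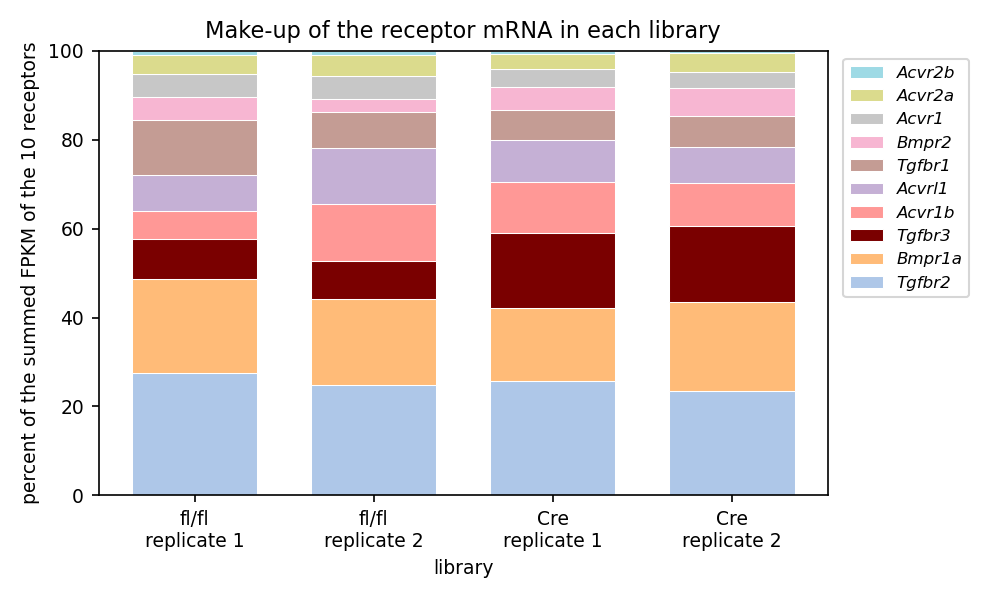
Percent of the summed FPKM of the 10 receptors taken by each gene, 1 bar per library. The dark red segment, Tgfbr3, is 8.96% and 8.53% of the bar in the libraries labelled fl/fl and 16.8% and 17.2% in those labelled Cre.

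Receptors that work as pairs were also read as ratios. Tgfbr2 to Tgfbr1 was 2.23 and 3.08 in the libraries labelled fl/fl and 3.87 and 3.31 in those labelled Cre, and Bmpr2 to Bmpr1a was 0.247 and 0.147 against 0.315 and 0.310. Neither ratio overlapped between groups, and the Cre pair agreed closely on the second. Bmpr1a to Acvr1 was 4.17 and 3.73 against 4.02 and 5.42 and did overlap. Of 10 sums and ratios, 7 gave an exact two-sided permutation p of 0.33, the smallest that 2 libraries against 2 allow, and 3 gave 0.667 (Benjamini-Hochberg adjusted 0.476 and 0.667), so none could pass 0.05 in this design.

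**Figure D5:**
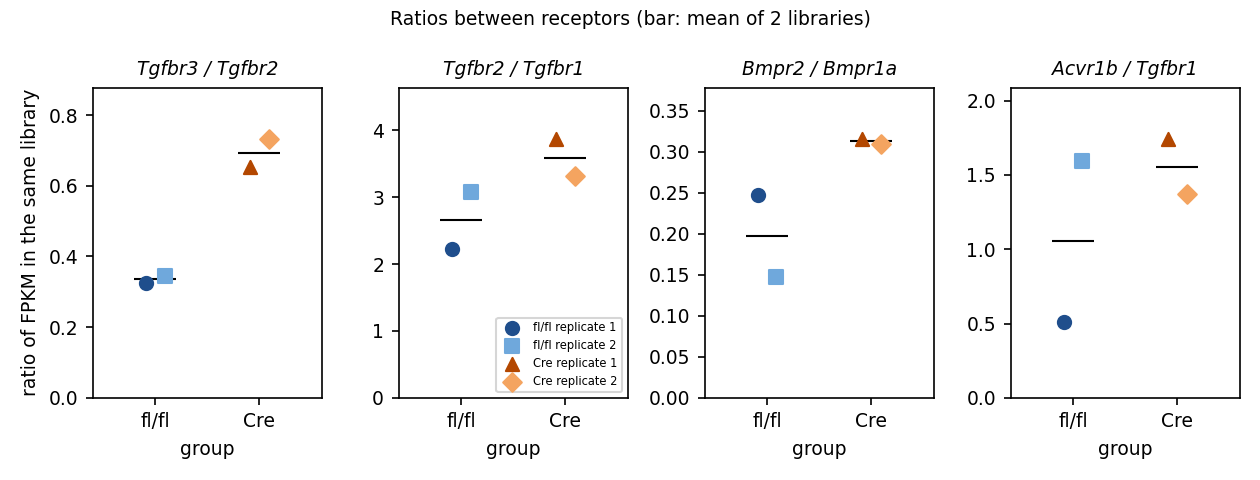
Ratios of FPKM between receptors of the same library, by group, with 1 point per library, the mean as a bar and axes from 0. Tgfbr3 / Tgfbr2 is 0.326 and 0.345 in the libraries labelled fl/fl and 0.652 and 0.732 in those labelled Cre, whereas Acvr1b / Tgfbr1 spreads from 0.514 to 1.59 within the fl/fl group.

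Other receptors and co-receptors of the family did not share one direction. Of 11 such genes, 6 passed the filter, and their median log2 fold change was 0.10, a sign that did not hold without fl/fl replicate 1, fl/fl replicate 2 or Cre replicate 2 (-0.038, -0.073 and -0.37). At an unadjusted p under 0.05, 1 of the 6 was higher and none was lower, against 7.30% and 6.58% of all genes. The higher gene was Rgma, a membrane-anchored BMP co-receptor. It stood at 19.9 and 13.1 FPKM in the libraries labelled fl/fl and 30.6 and 25.0 in those labelled Cre (log2 fold change 0.76, unadjusted p 0.037, adjusted p 0.323). Its paralog Rgmb stood at 15.4 and 13.4 against 12.5 and 13.7. Bambi, a pseudoreceptor without a kinase that dampens the type I receptors, stood at 8.24 and 7.39 against 5.32 and 6.61 FPKM. Amhr2, the type II receptor of anti-Müllerian hormone, stood at 4.28 and 2.14 against 1.26 and 1.72, and Bmpr1b, the other BMP type I receptor, at 1.29 and 2.18 against 1.21 and 3.35. Acvr1c, a further activin type I receptor, Tgfbr3l, a gene related to Tgfbr3, and the co-receptor genes Hjv, Tdgf1 and Cfc1 had a mean under 1 FPKM, with Acvr1c at 0.172 to 0.413 and Tgfbr3l at 0.0892 to 1.24.

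Among ligands of these receptors, 19 of 21 listed had a row and 11 were tested. At an unadjusted p under 0.05, 3 of the 11 were higher and 1 was lower, against 7.30% and 6.58% of all genes. Their median log2 fold change was -0.34, but it was 0.37 without fl/fl replicate 1, -0.58 without fl/fl replicate 2 and -0.026 without Cre replicate 2. Tgfb2, the TGF-beta that depends most on betaglycan, stood at 4.18 and 4.25 FPKM in the libraries labelled fl/fl and 6.02 and 6.41 in those labelled Cre (log2 fold change 0.56, unadjusted p 0.042). Bmp4, a ligand of BMPR1A and BMPR2, stood at 8.82 and 10 against 17.0 and 15.1 (0.77, unadjusted p 0.020), and Bmp7, which can signal through ACVR1, at 19.7 and 11.1 against 6.01 and 5.46 (-1.42, unadjusted p 0.005). Inhbb, the beta B subunit of activin and inhibin, was very uneven, at 2.24 and 28.9 against 145 and 104 FPKM. None of these passed after adjustment (lowest adjusted p 0.167).

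Downstream of the receptors, 7 of 8 SMAD genes were tested. At an unadjusted p under 0.05, 1 was higher, against 7.30% of all genes: Smad7 itself (log2 fold change 2.42, adjusted p 0.0982). The other 6 lay between -0.45 (Smad1) and 0.25 (Smad2). Of 29 proteins that bind, shed, traffic or ubiquitinate the receptors, 29 were tested. At an unadjusted p under 0.05, 1 of 29 was lower and 0 were higher, against 6.58% and 7.30% of all genes, so no more than the background gives. The lower gene was Traf4, a ubiquitin ligase that binds TGFBR1, at 15.1 and 14.3 against 9.54 and 9.33 FPKM (-0.64, adjusted p 0.265). The median of that list was 0.07, and -0.024 without fl/fl replicate 2.

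Of 12 genes commonly read as responses to these receptors, 6 were lower and 0 were higher by an unadjusted p under 0.05, against 6.58% of all genes lower, and the median log2 fold change was -0.81. Id1, a BMP response gene, stood at 81.2 and 71.8 FPKM in the libraries labelled fl/fl and 30.4 and 27.6 in those labelled Cre (-1.40, adjusted p 0.103). Tgfbi, a matrix protein induced by TGF-beta, stood at 57.2 and 71.1 against 22.1 and 20.9 (-1.58, adjusted p 0.113). Msx1 and Msx2, homeobox genes downstream of BMPs, had -1.18 and -1.04. In each of the 12 the groups did not overlap, with 10 lower and 2 higher, against 23.6% and 24.7% of all genes. Of 8 leukocyte markers tested, 3 (Coro1a, Cd52 and Cd68) were lower and 0 higher by an unadjusted p under 0.05, against 6.58% and 7.30% of all genes. In CPM, 4 of 8 were lower and 0 higher without overlap, against 23.6% and 24.7% of all genes. The other 4 overlapped between groups, among them Itgam (0.66), the only positive value of the 8, and Laptm5 (-0.10). The median log2 fold change of the 8 was -0.54. The list of 9 summed to 380 to 606 FPKM in the libraries labelled fl/fl and 290 to 347 in those labelled Cre, most of it from Lyz2, which overlapped (418 and 229 against 187 and 248 FPKM). Their part in these values was not tested.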

How the data were processed

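RNA from 4 libraries labelled as mouse endometrium was analysed, 2 titled SMAD7fl/fl and 2 titled SMAD7 Cre+/-, grouped by title. Per the file headers, the authors deposited raw read counts per gene and FPKM beside them. HISAT2, HTSeq 0.13.5 and the build GRCm38 are listed, without settings, in the submitters' processing notes. The deposited FPKM is the count scaled by gene length and library total: the length implied in each library matched within 1e-06 (relative) for 23463 of the 23463 genes counted in more than 1 library.

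Counts of the 13513 genes with a mean of at least 1 FPKM were tested with edgeR 4.0.16 (quasi-likelihood, TMM scaling, R 4.3.3, group as the only term, 2 residual degrees of freedom). Tests were two-sided, with Benjamini-Hochberg adjustment over all tested genes. The SE of a log2 fold change was derived from its quasi-likelihood F statistic. CPM is on TMM-scaled library sizes, and 3 counts correspond to 0.127 to 0.173 CPM. Alternatives were DESeq2 1.42.0, limma 3.58.1 on log2(FPKM + 1) and log2(FPKM + 0.1), other scalings and filters, the replicate number as a block, and each library left out. The procedure was tested on simulated data. The transcript-length FPKM, the sum over 10 receptors and the ratios were added after seeing the data.

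The receptors and the lists were chosen with earlier results of these data known. Named genes were Smad7, the 10 receptors, the 11 accessory receptors, up to 4 genes per pathway list of smallest p (unadjusted p under 0.05) with no overlap between groups, markers at 0 in a library, and the 3 genes with the profile most like the receptor of largest change. Hjv was listed under its older symbol. Genes named beyond this rule (Smad1, Smad2, Ovgp1, Foxl2, Foxj1, Star, Cyp17a1, Mylk, Wt1, Dcn and the leukocyte markers) were chosen after their values were seen. Bmp10 and Gdf2 were not analysed here. Other marker lists gave a median log2 fold change of -0.05 for 7 pericyte genes, 0.10 for 13 epithelial genes and 0.28 for 5 adipocyte genes.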

Additional observations from a re-analysis of the deposited data

How the results depend on the processing

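The low counts of Acvr2b (90 to 133) limit its precision. When a group is left with 1 library that library is assumed to vary like the other pair. Passing was therefore read only from alternatives that used all 4 libraries. Tgfbr3 kept its direction in 12 of 12 alternatives and passed with no filter (1.33) and with DESeq2 (1.39). Its range with 1 library left out was 1.25 to 1.53. Bmpr2 (0.45 to 1.52 with 1 library left out) and Acvr1b (0.27 to 1.07) kept their direction and did not pass in any alternative that used all 4 libraries. Bmpr1a (0.078 to 0.44) and Tgfbr2 (0.17 to 0.52) kept theirs and never passed. With 1 library left out, Tgfbr1 ran from -0.52 to 0.31, Acvr1 from -0.061 to 0.10, Acvrl1 from -0.0030 to 0.46, Acvr2a from -0.052 to 0.32 and Acvr2b from -0.082 to 0.16, each crossing 0. With no filter Acvr1 was at -0.035 and Acvr2b at -0.010. A filter of 5 FPKM left Acvr2b untested. Scaling moved the median of all genes by at most 0.0025.

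Genes called at an adjusted p under 0.05 numbered 0 higher and 0 lower, but 995 and 933 with no filter, 438 and 405 with DESeq2, 1 higher with a filter of 5, and from 0 to 2364 higher and 0 to 1885 lower with 1 library left out. At an unadjusted p under 0.05 there were 2168 and 2030 with no filter, 541 and 520 with a filter of 5, and from 348 to 3016 and 270 to 2618 with 1 library left out. The cause of these differences was not tested beyond the smaller number of genes under the stricter filter.

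The median of the receptors was 0.18 with no filter, 0.30 with a filter of 5 and 0.14 to 0.31 with 1 library left out. The ligand median was -0.15 with no filter and -0.58 to 0.37 with 1 library left out, the SMAD median -0.15 with no filter and -0.14 to 0.15, and those of accessory receptors -0.37 to 0.17, of receptor regulators -0.024 to 0.17 and of response genes -0.96 to -0.72. In TPM the Cre to fl/fl ratio of summed type I receptors was 1.32 and of all 10 receptors 1.50. With 1 library left out the ratio of type II sums ran from 1.12 to 1.56, of the sums of 10 from 1.22 to 1.50, of type II to type I from 1.00 to 1.26, of Bmpr2 to Bmpr1a from 1.27 to 2.12, of Acvr1b to Tgfbr1 from 0.976 to 3.03 and of Bmpr1a to Acvr1 from 1.02 to 1.37.

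With the replicate block, Tgfbr3 was at 1.39 (adjusted p 0.216), Bmpr2 at 0.98 and Acvr1b at 0.67, and 0 genes passed. Deviations of same-numbered libraries had a correlation of -0.076, so the numbers were not taken as pairs, and the block changed no call.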
